A study of Brachypodium distachyon with 9 samples.

Results

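YSL9 is 1 gene of the Brachypodium distachyon genome, annotated as a probable metal-nicotianamine transporter. Its row was found by its gene symbol, and 1 row carried that symbol in each of the deposited tables, out of 28607 features in the count table. It passed the filter on low counts, as did 23898 features in all. The RefSeq gene table (assembly Brachypodium_distachyon_v3.0) places it on the minus strand of chromosome 5, from 20623099 to 20628143. That span of 5045 bases includes introns. RefSeq lists 2 transcripts and 2 proteins for the gene, which the tables count as 1 feature, so the transcripts cannot be told apart. No other RefSeq gene overlaps the span.

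Yellow Stripe-Like (YSL) proteins are membrane carriers of the oligopeptide transporter family. They move metal ions, mainly iron but also copper, zinc and manganese, as complexes with nicotianamine, a small chelator made by all higher plants, or with the phytosiderophores that grasses derive from it. The family is named after the yellow stripe mutant of maize, in which the founding member, a root carrier of iron-phytosiderophore complexes, is lost. Other members load metals into and out of the vascular tissue of leaves and shoots. In rice, a gene also named YSL9 has been described in the distribution of iron within developing grains. These roles are background and were not measured here.

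Shoots of 3 genotypes in the 21-3 background were compared by RNA sequencing after drought. The gf14h-1 mutant is altered in the gene of GF14h, a 14-3-3 protein, and hdac19-2b in HISTONE DEACETYLASE 19 (HDAC19), which removes acetyl groups from histones. According to the labels, each mutant line is homozygous for a CRISPR/Cas9 mutation in exon 1 that creates an early stop codon, and the wild type carries neither. Each genotype was represented by 1 line with 3 biological replicates of whole aboveground tissue at the 5-leaf stage. All plants had 18 days of growth (14 h of light at 20 °C, 10 h of dark at 18 °C) and then 15 days without water (16 h of light, 8 h of dark), and were harvested 3 h after dawn. There was no watered group, so no level below can be read as a response to drought. No source used here ties GF14h or HDAC19 to a locus number, so the targeted transcripts were not analysed here.

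Library totals ran from 3302835 to 36632994 counts, and the smallest was gf14h-1 replicate 3. That library and gf14h-1 replicate 1 also held the fewest detected features, 23016 and 24218, against 26072 to 27335 in the other libraries. All 12 chloroplast genes listed as markers of green tissue were detected in every library, although poly(A) selection leaves only part of their transcripts. Their summed level was 3207 to 6236 CPM (counts per library of standard size) in gf14h-1, 2990 to 5655 CPM in hdac19-2b and 3079 to 7085 CPM in wild type. In whole-shoot RNA, fewer cells that express a gene and less transcript per cell cannot be told apart.

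YSL9 was expressed in every library. All CPM values are given after TMM scaling, which adjusts each library's total so that most genes match between libraries. The gf14h-1 shoots held 64.5, 62.1 and 40.9 CPM in replicates 1, 2 and 3. The hdac19-2b shoots held 36.2, 43.5 and 40.6 CPM, and the wild type shoots 40.4, 64.3 and 59.3 CPM. High and low libraries thus occurred within both gf14h-1 and wild type, while all 3 hdac19-2b libraries were low. Sorted by level, 5 libraries lay at or below 43.5 CPM and 4 at or above 59.3 CPM. The space of 15.8 CPM between them was wider than any other between neighbouring libraries, the next being 4.28 CPM.

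**Figure D1:**
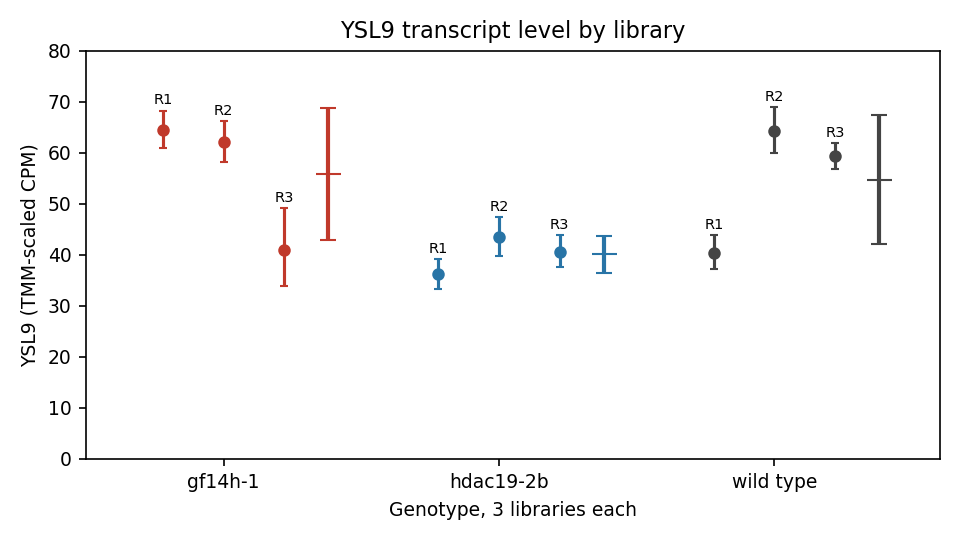
YSL9 level in TMM-scaled CPM for each of 3 libraries per genotype. Points carry exact 95% Poisson intervals for counting error, and the horizontal mark beside each group is its mean with the SD over 3 libraries. The 3 hdac19-2b libraries lie between 36.2 and 43.5 CPM, a range that also holds gf14h-1 replicate 3 and wild type replicate 1.

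Averages were 55.9 ± 12.99 CPM in gf14h-1, 40.1 ± 3.70 CPM in hdac19-2b and 54.7 ± 12.6 CPM in wild type (SD, n = 3 each). Ordered by mean level, gf14h-1 came first, wild type second and hdac19-2b last. No neighbouring pair in that order passed the tests below at an adjusted p under 0.05, which does not show that their levels are equal. Highest and lowest libraries differed 1.58-fold within gf14h-1, 1.20-fold within hdac19-2b and 1.59-fold within wild type.

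The authors' own median ratio normalization rescales the same reads by 1 factor per library, so it is not an independent check. On that scale of normalized signal YSL9 stood at 880, 827 and 554 in gf14h-1 replicates 1, 2 and 3. It stood at 481, 586 and 538 in hdac19-2b and at 539, 856 and 796 in wild type. Each library lay on the same side of the gap, which was itself found in these libraries.

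The spread between wild type replicates was wider than counting error. YSL9 had 566, 784 and 2118 counts in wild type replicates 1, 2 and 3. The exact 95% Poisson intervals were 37.2 to 43.9 CPM for replicate 1, 59.9 to 69.0 CPM for replicate 2 and 56.8 to 61.9 CPM for replicate 3, so the first does not meet the others. In hdac19-2b there were 626, 515 and 640 counts. The least certain value was gf14h-1 replicate 3, with 116 counts and an interval of 33.8 to 49.1 CPM, against 1202 and 948 counts in replicates 1 and 2. Even there the upper bound stayed below the lower bounds of 60.9 and 58.2 CPM in the other gf14h-1 libraries.

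Whether the YSL9 transcript depends on GF14h in droughted shoots is the question put by gf14h-1 against wild type. YSL9 did not pass the test. The log2 fold change was 0.04 (SE 0.24), with a 95% interval of −0.50 to 0.58, or 0.709- to 1.49-fold. The quasi-likelihood test of edgeR gave an unadjusted p of 0.874, and 0.994 after Benjamini-Hochberg adjustment. An exact two-sided permutation test of log2 CPM gave p = 0.70, where 3 libraries against 3 cannot go below 0.10. Only gf14h-1 replicate 1 exceeded every wild type library. Of all features tested, 0.146% were called in this comparison (adjusted p under 0.05), and 7.65% had a smaller absolute fold change than YSL9.

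With hdac19-2b against wild type the same question was put for HDAC19. Mean YSL9 was lower in the mutant, with a log2 fold change of −0.45 (SE 0.24) and a 95% interval of −0.99 to 0.09, or 0.505- to 1.06-fold. This difference did not pass either, at an unadjusted p of 0.0920, or 0.852 after Benjamini-Hochberg adjustment, by the quasi-likelihood test of edgeR. The exact two-sided permutation p was 0.30. The groups overlapped, since wild type replicate 1, at 40.4 CPM, lay inside the hdac19-2b range, and 1 of 3 hdac19-2b libraries fell below all of wild type. Called features made up 0.272% of those tested. The absolute fold change of YSL9 exceeded that of 68.6% of features, and by unadjusted p it ranked 2580 of 23898.

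Set directly against each other, the mutants differed by a log2 fold change of 0.49 (SE 0.24), higher in gf14h-1, with a 95% interval of −0.05 to 1.03, or 0.966- to 2.04-fold. An unadjusted p of 0.0710 by the quasi-likelihood test of edgeR, 0.604 after Benjamini-Hochberg adjustment, left it uncalled, as were all but 0.0167% of features. Here gf14h-1 replicates 1 and 2 exceeded every hdac19-2b library, and replicate 3 lay among them (exact two-sided permutation p = 0.20). Without gf14h-1 replicate 3, the shallowest library, the log2 fold change was 0.67. The same edgeR test then gave an unadjusted p of 0.0122 and an adjusted p of 0.217. Both mutants are compared with the same wild type libraries, so the comparisons are not independent.

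**Figure D2:**
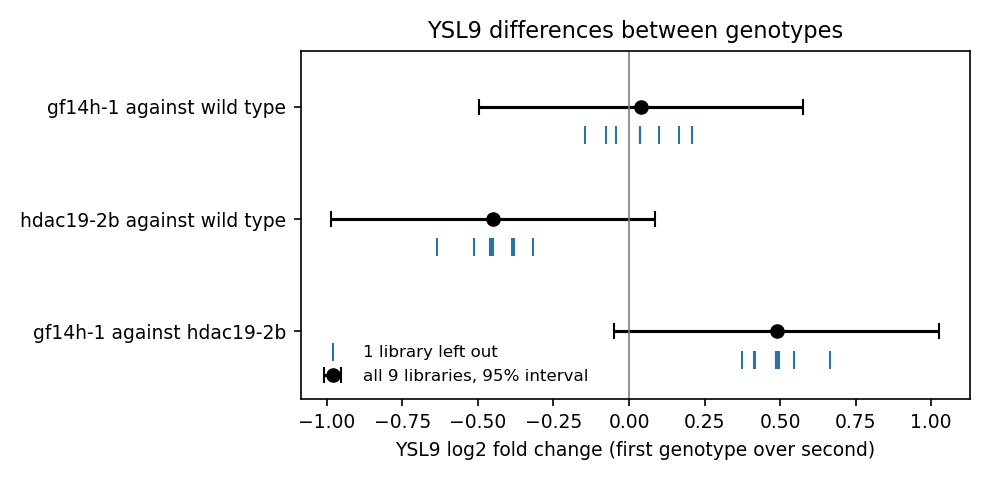
Log2 fold change of YSL9 in the 3 comparisons, first genotype over second. Black points and bars are the fit of all 9 libraries with its 95% interval, and blue ticks are fits with 1 library left out. All 3 intervals include 0, and only the ticks of gf14h-1 against wild type fall on both sides of it, from −0.15 to 0.21.

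Genotype accounted for 40.9% of the variance of YSL9 log2 CPM over the 9 libraries, against a median of 23.4% over all tested features. That share was smaller for 72.8% of features. The within-genotype SD of log2 CPM was 0.304 for YSL9 and 0.469 for the median feature. Its abundance decile holds 2390 features, with a median SD of 0.314, and 47.3% of them were less variable than YSL9. YSL9 lies at the lower edge of that decile, above 0.962% of it in mean level, so it was also set against the 2390 features nearest to it in level, 1195 on each side, a choice made after seeing the data. Of these 47.0% were less variable (median SD 0.317). Within single genotypes, YSL9 was more variable than 44.2% of these features among gf14h-1 plants (SD 0.364, median of the features 0.402). It was more variable than 28.4% among hdac19-2b plants (SD 0.134, median 0.202) and than 81.3% among wild type plants (SD 0.357, median 0.214). With 3 libraries a group these SDs are themselves imprecise, and whether they differ between genotypes was not tested.

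**Figure D3:**
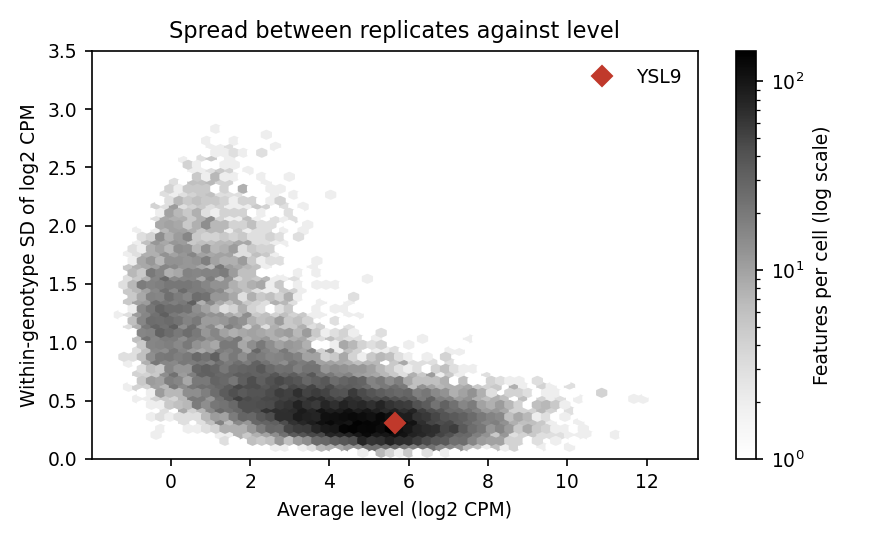
Within-genotype SD of log2 CPM (y axis) against average log2 CPM (x axis) for all 23898 tested features, shaded by the number of features. YSL9, the red diamond at an SD of 0.304, lies within the densest part of the cloud at its level.

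To place YSL9 among other genes, CPM was divided by the length of the annotated gene span in kilobases. This scale counts introns as length and so understates genes with long introns. Of the protein-coding genes past the filter, 72.1% had a shorter span than YSL9. On it YSL9 averaged 11.1 ± 2.57 CPM per kb in gf14h-1, 7.94 ± 0.733 CPM per kb in hdac19-2b and 10.8 ± 2.50 CPM per kb in wild type (SD, n = 3 each). The median of the 19658 protein-coding genes that passed the filter was 5.11 CPM per kb, their 75th percentile 12.97 and their 90th percentile 32.1. Over all 9 libraries YSL9, at 9.95 CPM per kb, was 1.95 times that median and ranked 6170, above 68.6% of these genes. By single library its percentile ran from 63.4 to 75.9 in gf14h-1, from 60.3 to 65.6 in hdac19-2b and from 62.8 to 75.3 in wild type. YSL9 was thus a transcript of moderate abundance in all 3 genotypes. Without length scaling, at 50.2 ± 11.97 CPM (SD over 9 libraries), it stood above 76.1% of these genes, whose median was 19.5 CPM.

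**Figure D4:**
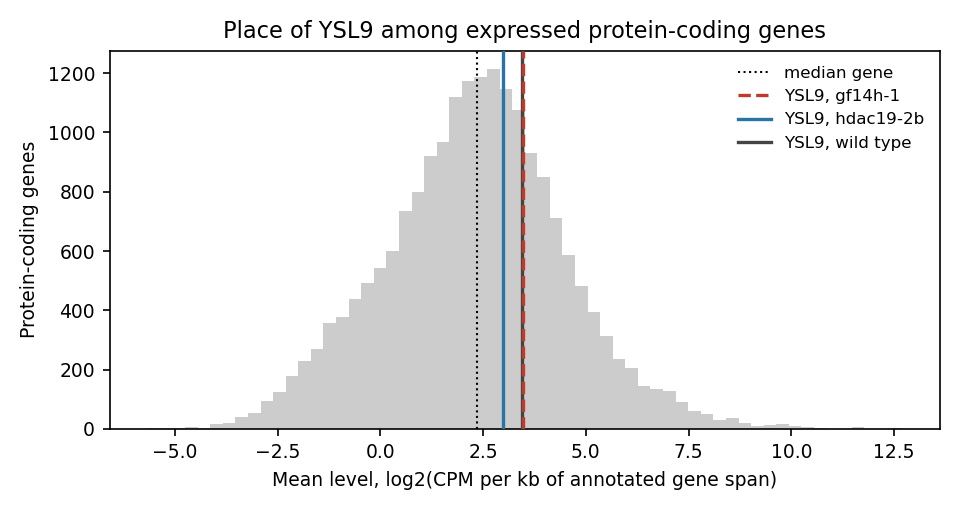
Histogram of mean level, as log2 of CPM per kb of annotated gene span, for 19658 protein-coding genes past the filter. The dotted line is the median gene (5.11 CPM per kb) and the coloured lines are the YSL9 means, at 11.1 in gf14h-1 (dashed), 7.94 in hdac19-2b and 10.8 CPM per kb in wild type, all to the right of the median.

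Its nearest neighbours in level were loci without a gene name in the files. LOC100833824 (chromosome 4, 7408386 to 7413834) and LOC100826030 (chromosome 2, 55275673 to 55278422) lay just above YSL9 in CPM per kb. LOC100844781 (chromosome 3, 57834301 to 57836481) and LOC100835623 (chromosome 2, 2942672 to 2946285) lay just below, and all 4 rounded to 9.95 CPM per kb. A shared mean did not mean a shared pattern. Of the 4, LOC100826030 differed most from wild type, while log2 fold changes of the others ran from −0.20 to 0.32 over both mutants. LOC100826030 held 20.9 ± 4.77 CPM in gf14h-1, 22.02 ± 1.44 CPM in hdac19-2b and 39.2 ± 2.39 CPM in wild type (SD, n = 3 each), with no overlap between either mutant and wild type. Counted for each mutant by itself, such separation was seen for 11.9% of all tested features in gf14h-1 and 16.8% in hdac19-2b. The share with both was not counted. Its adjusted p, 0.226 in gf14h-1 and 0.185 in hdac19-2b (edgeR's quasi-likelihood test, Benjamini-Hochberg), did not pass the threshold.

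Likeness to YSL9 was measured as Pearson's r of log2 CPM over the 9 libraries, for 16529 features that averaged at least 5 CPM. These r describe 9 points that share library preparation and scaling. Highest was LOC100836525 (chromosome 1, 10944193 to 10948826) with r = 0.950. It held 212, 176 and 123 CPM in gf14h-1 replicates 1, 2 and 3, 122, 152 and 132 CPM in hdac19-2b, and 145, 208 and 203 CPM in wild type. Like YSL9 it was lowest in replicate 3 of gf14h-1 and in replicate 1 of wild type within those genotypes.

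LOC100835668 (chromosome 1, 70555393 to 70563599) had r = 0.949. Its levels were 154, 161 and 102 CPM in gf14h-1, 91.1, 90.6 and 95.1 CPM in hdac19-2b and 112, 156 and 145 CPM in wild type. It was lower in every hdac19-2b library than in any wild type library, which YSL9 was not. Such separation, in either direction, was seen for 16.8% of all tested features. The next were LOC100828194 on chromosome 2 (47431313 to 47436310), with r = 0.939, and 2 loci of chromosome 1. These were LOC100845323 (56468297 to 56471001) and LOC100823194 (56680399 to 56687153), both with r = 0.937.

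The files give no gene name or function for any of the 5. All are protein-coding and lie on chromosomes other than that of YSL9. Since they were picked for the YSL9 pattern, their genotype differences are description only. Their log2 fold changes ran from −0.12 to 0.41 in gf14h-1 against wild type and from −0.58 to −0.28 in hdac19-2b against wild type. The sixth feature followed closely at r = 0.936, and 21 features in all were above 0.9, while 46 were below −0.9. The median r was 0.04.

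**Figure D5:**
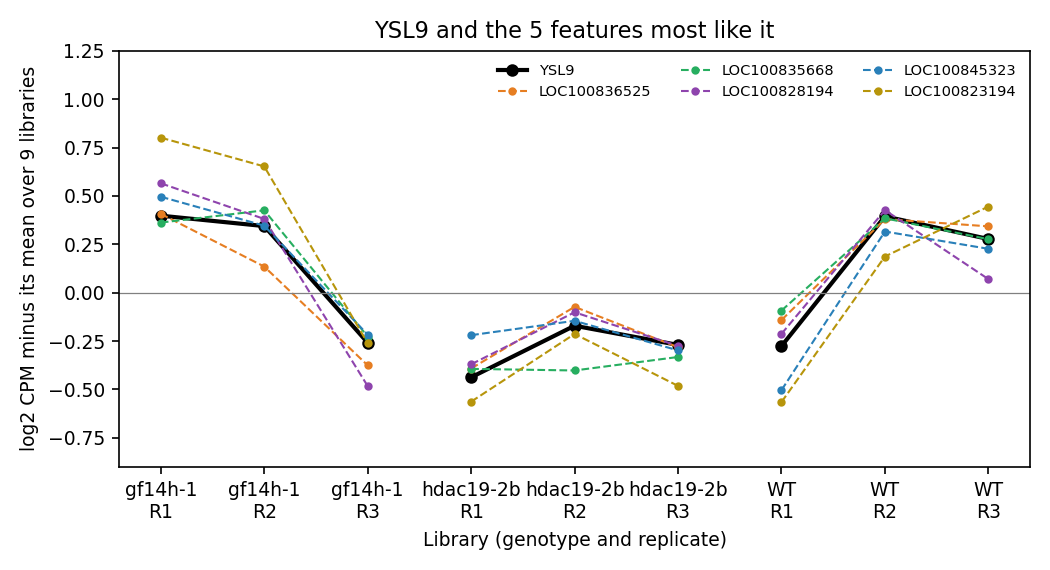
Level of YSL9 (black) and of the 5 features most like it, as log2 CPM minus each feature's mean over 9 libraries, by genotype and replicate (WT, wild type). Replicate 3 of gf14h-1, all 3 hdac19-2b libraries and replicate 1 of wild type lie below 0 for every feature shown, and the other 4 libraries above it.

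Membership of that list rested on single libraries. Leaving out 1 library at a time, between 0 and 3 of the 5 features stayed among the 5 most alike, and none did with gf14h-1 replicates 1 and 3 both left out. With Spearman's rank correlation 1 of 5 stayed. After centring each genotype on its own mean, which leaves only the variation between replicates, none stayed, although the r of LOC100836525 was 0.963 on that scale.

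On chromosome 5 the 3 genes on each side of YSL9 were tested as its neighbours, and none is named in the files. None of the 6 passed edgeR's quasi-likelihood test in any comparison. At an unadjusted p under 0.05 there were 0 in gf14h-1 against wild type, 2 in hdac19-2b against wild type and 2 between the mutants, where 7.56%, 7.19% and 9.03% of all features tested were under it. The limma-trend test called none of them, and the DESeq2 Wald test called 1, LOC100825993, between the mutants, where it called 1.11% of all features. The closest is LOC100839579 (20630124 to 20634218), which lies 1980 bases from YSL9 on the same strand, on the side of the YSL9 transcription start. It held 35.0, 31.3 and 21.5 CPM in gf14h-1, 21.8, 22.5 and 24.4 CPM in hdac19-2b and 30.0, 39.5 and 31.8 CPM in wild type. Every hdac19-2b library was below every wild type library, a separation that 16.8% of all tested features showed in one direction or the other. The log2 fold change in hdac19-2b was −0.56 (SE 0.23), with an unadjusted p of 0.0333 and an adjusted p of 0.594 (edgeR's quasi-likelihood test, Benjamini-Hochberg). Of the 5 neighbours that averaged at least 5 CPM it was also the most like YSL9 over the 9 libraries, at r = 0.864.

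LOC100825993 (20610464 to 20613440), on the plus strand, went the other way. It held 6.44, 7.14 and 6.70 CPM in gf14h-1, 19.1, 17.8 and 13.1 CPM in hdac19-2b and 7.57, 11.9 and 10.9 CPM in wild type. All hdac19-2b libraries were above all wild type libraries, and all gf14h-1 libraries below them. Separation from wild type in either direction was seen for 16.8% of all tested features in hdac19-2b and 11.9% in gf14h-1. The mutants differed by a log2 fold change of −1.30 (SE 0.29), gf14h-1 over hdac19-2b, with an adjusted p of 0.297 (edgeR's quasi-likelihood test, Benjamini-Hochberg) and of 0.0112 in the DESeq2 Wald test. Its r with YSL9 was −0.41.

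The most abundant neighbour was LOC100826931 (20645862 to 20649278), at 30.3 CPM per kb of span against 9.95 for YSL9, and LOC100825679, LOC100826617 and LOC100839275 stood at 7.45, 6.38 and 3.18 CPM per kb. Over the 6 neighbours the log2 fold changes ran from −0.58 to 0.63 in gf14h-1 against wild type (median −0.10) and from −0.56 to 0.72 in hdac19-2b against wild type (median −0.18). The median over all tested features lay within 0.02 of 0 in both. In each comparison the neighbours went in both directions.

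No wider account of metal transport could be drawn from the named genes. Of 121 gene symbols listed for iron and metal homeostasis, such as the nicotianamine synthases, the ZIP and NRAMP metal carriers and the other YSL genes, YSL9 alone had a feature under that name in the count table. Most loci in the files carry only a number. RefSeq also names YS1A and YS1B, after the maize founder of the family, and these were not analysed here.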

How the data were processed

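Shoot RNA from 3 replicates of each of 3 genotypes was poly(A) selected and sequenced, per the labels' protocols. The authors deposited estimated counts per annotated feature, of which 69.2% to 83.2% in a library were whole to within 0.001, and these were rounded. They also deposited a signal table, median ratio normalized per its file name. Its low values were whole numbers to within 0.1 in 100% of cases once multiplied by 1 size factor per library. These whole numbers were fitted as an alternative added after seeing the data. FastQC 0.11.9, HISAT2, DESeq2 and Partek are named, without roles, in the submitters' processing notes. Which program counted reads, and whether by strand, is not stated there or in the labels, so antisense reads cannot be told apart.

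All 9 libraries were fitted together across 23898 features (99.9% of counts) with edgeR 4.0.16 in R 4.3.3, with TMM scaling, the default filter and genotype as the only term. Benjamini-Hochberg adjustment covered all features, and those under 0.05 were called. The SE is the absolute log2 fold change over the square root of F, and 95% intervals use the t distribution of the test. Every pair of libraries differed by more than sampling noise (smallest chi-square 18.3 for each degree of freedom). Poisson intervals cover counting error only, and 3 counts in a library correspond to 0.0840 to 1.06 CPM. Nothing beyond "biological replicate" says whether plants were pooled or how the replicates were arranged during growth.

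Coordinates are 1-based RefSeq positions, and 98.5% of the deposited gene features share their start. The gene, the marker and metal lists and the tests were chosen with earlier results of these data known. Named features were YSL9, its 3 neighbours on each side, the 5 most alike and the 2 next above and below in level. Coding lengths and protein homologs had been planned for length scaling and for family members. No sequences were used here, so gene span replaced coding length and the homologs were not analysed here. Alternatives were another scaling, no filter, DESeq2 1.42.0, limma-trend (limma 3.58.1), only 6 libraries, a replicate block, counts summed per gene and leaving out each library.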

Additional observations from a re-analysis of the deposited data

How the results depend on the processing

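YSL9 was not called in any comparison under any of 18 alternatives. Adjusted p ran from 0.707 to 1.00 for gf14h-1 against wild type, from 0.447 to 1.00 for hdac19-2b against wild type and from 0.217 to 0.909 between the mutants. The last 2 kept their direction throughout. Their unadjusted p in edgeR's quasi-likelihood test moved across 0.05 when single libraries were left out. It ran from 0.0303 (without wild type replicate 1) to 0.278 in hdac19-2b against wild type. Between the mutants it ran from 0.0122 (without gf14h-1 replicate 3) to 0.197. With 1 library left out, the log2 fold change ran from −0.64 to −0.32 in hdac19-2b against wild type (−0.64 without wild type replicate 1) and from 0.37 to 0.67 between the mutants (0.67 without gf14h-1 replicate 3). For gf14h-1 against wild type it ran from −0.15 to 0.21 and turned negative in 3 cases, −0.08 without gf14h-1 replicate 1, −0.04 without gf14h-1 replicate 2 and −0.15 without wild type replicate 1. It was 0.18 with gf14h-1 replicates 1 and 3 both left out, a setting chosen after seeing the data, in which the lone gf14h-1 library is assumed to vary like the others. Same-numbered libraries did not deviate together (correlations of −0.14 to 0.02), so the numbers were not taken as pairs. Over all pairs of libraries from different genotypes these correlations ran from −0.14 to 0.21. The highest was between gf14h-1 replicate 3 and wild type replicate 1, each the lowest in YSL9 within its genotype. Whether these libraries share a source of variation was not tested. With the replicate block the log2 fold changes were 0.05, −0.44 and 0.49 for gf14h-1 against wild type, hdac19-2b against wild type and gf14h-1 against hdac19-2b.

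The number of features called varied with the setting, as did the number tested, while YSL9 was never called. In the same order of comparisons 35, 65 and 4 features were called by edgeR, and 339, 563 and 279 by the DESeq2 Wald test. There were 4, 12 and 2 with the replicate block. The whole numbers recovered from the normalized table gave 35, 65 and 4 again. They come from the same reads as the main fit, so that match was built in. Fits of only the 6 libraries called 4, 235 and 1, and counts summed per gene 48, 152 and 4. Over all settings the counts were 4 to 339, 2 to 563 and 1 to 279. The percentile of YSL9 among expressed protein-coding genes moved from 68.6 to 76.1 without length scaling, to 71.4 without the filter, and between 67.7 and 69.6 with 1 library left out. The homolog alternatives were not run, as no protein sequences were used here. At 116 counts, depth limits gf14h-1 replicate 3 most.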
